A study of Mus musculus with 7 samples.

Results

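The channel genes described here are the 124 protein-coding rows of the count table whose symbols name a potassium channel gene with a Kcn prefix and a number, a calcium channel subunit (Cacna1, Cacna2d or Cacnb) or a sodium channel subunit (Scn with a or b). They are 124 of 35727 genes in the table and were chosen by symbol, not by their values. The libraries are polyA RNA-seq of tumour cells from mice, picked out by their red fluorescence (RFP), from 2 models of undifferentiated pleomorphic sarcoma. This cancer arises in soft tissue and shows no clear line of differentiation. The first model overexpressed Vgll3, a cofactor of the TEAD transcription factors, on a p53 knockout background (3 libraries, Vgll3 below). The second overexpressed Ccne1, the gene of cyclin E1, on the same background (4 libraries, Ccne1 below). Both began as mesenchymal stem cells of female C57/Bl6 p53 knockout mice that were given a retroviral vector. The cells were passaged through wild-type females under the skin, grown briefly in culture and transplanted again, so every group shares the loss of p53 and a vector. Each model is 1 transduced cell line, so the transduced gene and other differences between the lines cannot be told apart. The labels give neither the ages of the mice nor whether each library came from its own tumour, and the p-values then measure only the spread between libraries, which may be partly technical.

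Voltage-gated channels open when the membrane depolarises and let calcium, potassium or sodium cross. Each is built on a large pore-forming alpha subunit, to which smaller auxiliary subunits bind that set its amount at the surface and its kinetics. They are best known from nerve and muscle, but connective-tissue cells also carry potassium and calcium channels, which set membrane potential and calcium entry. The symbol rule is wider than its name: it also takes in 15 inward rectifier (Kcnj) and 14 two-pore-domain (Kcnk) potassium channel genes, whose proteins have no voltage-sensor domain. A further class of 12 genes has the prefixes Kcnma, Kcnmb, Kcnn, Kcnt and Kcnu. It is called calcium- and sodium-activated potassium channels below, by prefix and not by the gating of each member.

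Library totals lay between 26433220 and 47504434 estimated counts in Vgll3 and between 21725890 and 53610300 in Ccne1. The transduced gene Vgll3 averaged 252 ± 34.6 CPM (estimated counts scaled to a common library size of 1000000) in Vgll3 and 50.7 ± 8.57 CPM in Ccne1 (SD, n = 3 and 4, as for every mean below), with a log2 fold change of 2.31 (SE 0.15, edgeR adjusted p = 1.2e-05). Ccne1 averaged 14.9 ± 2.16 CPM in Vgll3 and 12.7 ± 5.61 CPM in Ccne1, a difference that did not pass (edgeR adjusted p = 0.609). The labels do not give the sequence or species of the inserted Ccne1, so whether its transcripts are counted in this row is not known. The Ccne1 libraries are therefore called by their label only. Vgll3 replicate 3 stood apart, with a Pearson r across genes of 0.959 and 0.963 with the other Vgll3 libraries, against 0.98 to 0.988 for every other pair within a group. Summed CPM of 8 endothelial markers was 29.6, 56.4 and 219 in Vgll3 replicates 1 to 3 and 43.6 to 121 in Ccne1, with none of the 8 at 0 in any library and 0 of 8 called. Of the 219 CPM, 184 were Pecam1; the other 7 summed to 10.05, 21.1 and 34.97 CPM in Vgll3 replicates 1 to 3 and 21.2 to 49.5 CPM in Ccne1. Of 16 skeletal muscle markers, Myod1, Myog, Myf6 and Mymk had no count in any library, and the list summed to 6.50 to 13.9 CPM in Vgll3 and 11.6 to 14.4 CPM in Ccne1; of 5 tested, Des rose and Acta1 and Tnnc1 fell, and Chrna1, the most abundant, was not called. The 10 neuron markers summed to 24.9 to 26.9 CPM in Vgll3 and 26.8 to 33.7 CPM in Ccne1. Both tested were called, Tubb3, the most abundant, lower, and Map2 higher, at 1.57 to 7.10 CPM in Vgll3 and 0 to 0.031 CPM in Ccne1. No Ccne1 library of Map2 reached the level of the low-count filter, so it was tested only through its Vgll3 libraries. The 10 smooth muscle and pericyte markers summed to 253 to 283 CPM in Vgll3 and 193 to 226 CPM in Ccne1. Smtn alone had 186 ± 17.5 CPM in Vgll3 and 142 ± 9.39 CPM in Ccne1. Of 8 tested, 4 rose, among them Des, which is also in the skeletal muscle list. The 10 macrophage markers, led by Cd14, summed to 12.0 to 21.95 CPM in Vgll3 and 59.9 to 79.9 CPM in Ccne1, and Cd14 alone of 7 tested was called. Most of this gap was Cd14, at 6.39 ± 1.85 CPM in Vgll3 and 59.4 ± 7.89 CPM in Ccne1. The 8 Schwann and glial markers, led by Mbp, summed to 2.40 to 5.52 CPM in Vgll3 and 2.94 to 3.715 CPM in Ccne1. Of 4 tested, Erbb3 rose and Ngfr fell. The 10 lymphocyte markers, led by Trac, summed to 1.93 to 7.16 CPM in Vgll3 and 2.58 to 3.715 CPM in Ccne1, with 0 of 3 called. The 7 epithelial markers summed to 0.151 to 1.00 CPM in Vgll3 and 2.07 to 4.81 CPM in Ccne1. Krt8, the most abundant and the 1 tested, was called lower. No Vgll3 library of Krt8 or Ngfr reached the level of the low-count filter. The 8 mesenchymal markers summed to 34090 to 41010 CPM in Vgll3 and 22240 to 27500 CPM in Ccne1; Col1a1, Col1a2 and Pdgfrb rose, and Vim, which had the highest mean over all libraries, Pdgfra and Prrx1 fell. Beside the counts of called markers, 51.9% of all genes tested were called, 25.1% higher and 26.8% lower in Vgll3. The part of other cell types in the results below was not tested, and in sorted bulk cells fewer cells of a type and less RNA per cell cannot be told apart.

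Most of the channel genes were at or near the limit of detection. Of the 124, 84 were too low for the test, 18 of them without a count in any library. Of all 35727 genes in the table, 21987 were too low, 12632 of them without a count. The most abundant of these 84 was the Kv1.3 gene Kcna3, at 1.35, 0.605 and 0.234 CPM in Vgll3 and 0 to 0.0929 CPM in Ccne1. In 77 of the 84 no library reached 0.5 CPM, among them Kcnma1, the pore of the large-conductance BK channel, with at most 0.301 CPM. A count of 0 allowed a level of up to 0.0643 to 0.113 CPM in a Vgll3 library and 0.0577 to 0.136 CPM in a Ccne1 library (3 counts, counting error only). Of the 66 untested genes with some count, 38 had their highest value in Vgll3 replicate 3 (57.6%, against 32.5% of the 9355 untested genes with a count). The 40 genes that passed the filter had a median level of 1.12 CPM, against 21.4 CPM for all 13740 genes tested.

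Of the 40 tested, 11 were higher and 11 lower in Vgll3 at an edgeR adjusted p of 0.05. These 22 are 55.0% of the tested members, close to the 51.9% called among all genes, of which 25.1% were higher and 26.8% lower. Of the 40, 17 (42.5%) were called with a difference of at least 2-fold, against 16.7% of all genes, which had the higher levels given above. The median log2 fold change (Vgll3 over Ccne1) was −0.16 for the members and 0.01 for all genes. The groups did not overlap for 23 members (57.5%), against 55.7% of all genes. Some members, named below, passed the filter only through the group where they were high, which favours a lack of overlap and a large difference. The shares without overlap and with at least 2-fold are therefore not read as a trait of channel genes. By class, 4 of 6 tested Kv auxiliary subunits rose and 0 fell, and 3 of 4 tested calcium channel auxiliary subunits fell and 0 rose. Of 9 tested Kv alpha genes, 4 rose and 2 fell.

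**Figure D1:**
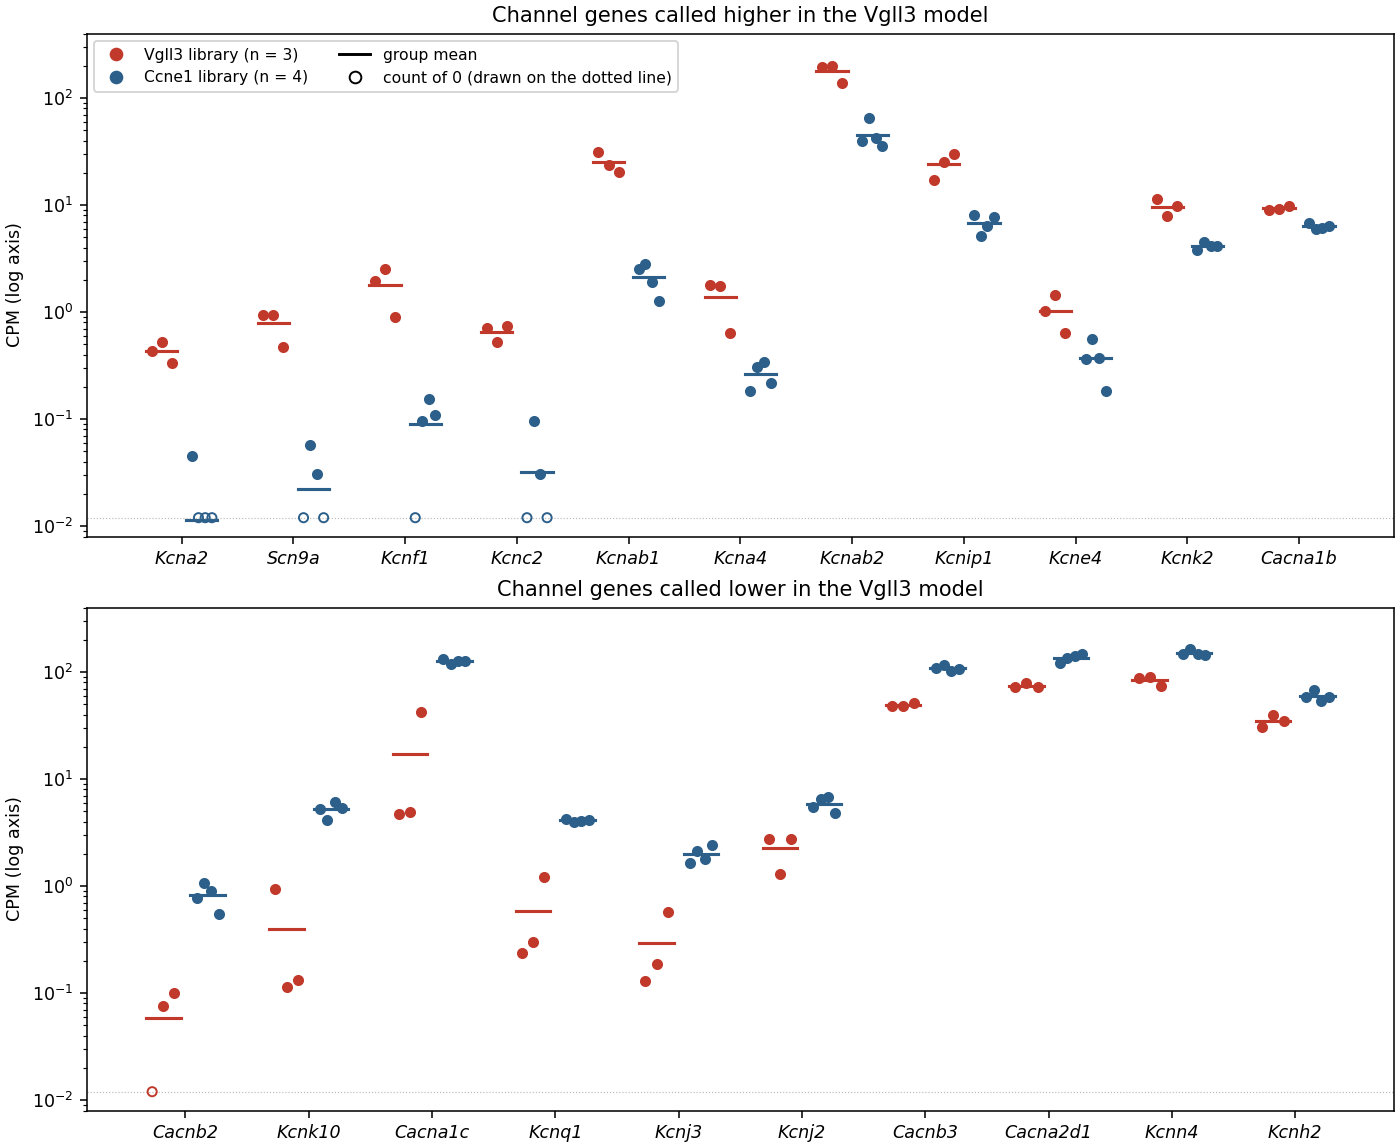
CPM on a log axis of 21 of the 22 called channel genes in each library, Vgll3 in red and Ccne1 in blue, with group means as bars and counts of 0 as open circles on the dotted line. The 11 genes in the upper panel were higher and the 10 in the lower panel lower in Vgll3; Cacna1c shows 1 Vgll3 library at 42.1 CPM and the other 2 at 4.72 and 4.91 CPM.

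The L-type calcium channel pore and 3 auxiliary subunits of calcium channels were lower in Vgll3. Cacna1c encodes the pore of Cav1.2, the L-type channel of heart and smooth muscle (chromosome 6, 118587240 to 119196418, mm10). It had 4.72, 4.91 and 42.1 CPM in Vgll3, against 131, 119.9, 128 and 127 CPM in Ccne1. The Ccne1 libraries lay close together, while Vgll3 replicate 3 was far above the other Vgll3 libraries and still below every Ccne1 library. The log2 fold change was −2.88 (SE 0.88, edgeR adjusted p = 0.0350), and its 95% interval ran from −5.03 to −0.73. That call rests on the full set of libraries: without Vgll3 replicate 1 or 2 the edgeR adjusted p was 0.0729 or 0.0789, and without any 1 Ccne1 library it was 0.0552 to 0.0759, whereas without Vgll3 replicate 3 the log2 fold change was −4.71 and the edgeR adjusted p = 3.32e-08. With no low-count filter the edgeR adjusted p was 0.0746. On all libraries the log2 fold change was −2.86 by DESeq2 (adjusted p = 0.00149) and −3.78 by limma-voom (adjusted p = 0.000595).

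The auxiliary subunits were far more even between libraries. Cacnb3, the cytosolic beta3 subunit that carries pores to the membrane (chromosome 15), had 47.9, 48.2 and 51.6 CPM in Vgll3 and 109, 117, 103 and 106 CPM in Ccne1. It was 2.21-fold lower in Vgll3, with the smallest adjusted p of any channel gene (log2 fold change −1.14, SE 0.07, edgeR adjusted p = 9.01e-06). Cacna2d1, the extracellular alpha2delta-1 subunit and the target of gabapentin (chromosome 5), had 73.1, 78.4 and 72.1 CPM in Vgll3 and 121, 134, 141 and 148 CPM in Ccne1. It was 1.83-fold lower (log2 fold change −0.87, SE 0.08, edgeR adjusted p = 5.4e-05). No library of one group came near the other in either gene, Vgll3 replicate 3 included. Cacnb2, the main beta subunit of heart, was scarce: 0, 2 and 3 counts in Vgll3 (0, 0.0756 and 0.100 CPM) and 0.545 to 1.06 CPM in Ccne1 (edgeR adjusted p = 0.00284). Over the pooled counts, 5 in Vgll3 and 116 in Ccne1, the ratio was 0.0560 with an exact 95% interval of 0.0178 to 0.134 for counting error. No Vgll3 library reached the level of the low-count filter, so Cacnb2 was tested only through its Ccne1 libraries. Cacnb1, the beta subunit of skeletal muscle, was 5.01 ± 1.19 CPM in Vgll3 and 6.58 ± 0.573 CPM in Ccne1 and did not pass (edgeR adjusted p = 0.0974, or 0.00999 without Vgll3 replicate 3).

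Because the subunits did not move by equal amounts, their proportion differed between libraries. Per kilobase of exon, the level of Cacnb3 was 53.7, 51.8 and 6.48 times that of Cacna1c in Vgll3 replicates 1 to 3, and 4.26 to 5.16 times in Ccne1. Vgll3 replicate 3 lay nearer to the Ccne1 libraries than to its own group in this ratio. Its size depends on the length of all annotated exons, 21191 bases for Cacna1c and 4010 for Cacnb3. The comparison between libraries does not depend on that length. Cacna2d1 over Cacnb3, on the same scale, was 0.451 to 0.525 in Vgll3 and 0.359 to 0.453 in Ccne1, so the groups overlapped in this proportion.

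Of the other calcium channel pores, Cacna1b rose. It encodes Cav2.2, the N-type channel of nerve endings, and had 9.02, 9.22 and 9.74 CPM in Vgll3 and 5.93 to 6.78 CPM in Ccne1. The difference was small but clear of the spread (1.48-fold, log2 fold change 0.57, SE 0.11, edgeR adjusted p = 0.00286). Cacna1a, the P/Q-type pore, was 4.56 ± 0.857 CPM in Vgll3 and 5.10 ± 0.359 CPM in Ccne1 (edgeR adjusted p = 0.478), with a 95% interval of its log2 fold change from −0.56 to 0.24. The low-voltage-activated T-type pores Cacna1i and Cacna1g did not pass: Cacna1i had 1.14, 1.93 and 1.94 CPM in Vgll3 and 0.228 to 1.21 CPM in Ccne1 (edgeR adjusted p = 0.0689), and Cacna1g had 0.605 to 0.815 CPM in Vgll3 and 0 to 0.637 CPM in Ccne1 (edgeR adjusted p = 0.261).

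Among the auxiliary subunits of voltage-gated potassium channels the direction was the opposite. Kcnab2 encodes Kv-beta2, a cytosolic subunit with an aldo-keto reductase fold that binds Kv1 channels (chromosome 4, 152390742 to 152477871). It had 195, 199 and 139 CPM in Vgll3 and 39.4, 64.9, 42.4 and 35.4 CPM in Ccne1. It was 3.89-fold higher in Vgll3 (log2 fold change 1.96, SE 0.23, edgeR adjusted p = 0.000366), and per kilobase of exon it was the most abundant tested channel gene in Vgll3 and the fifth in Ccne1. Its relative Kcnab1, Kv-beta1 (chromosome 3, 65109384 to 65378223), had 31.2, 23.7 and 20.2 CPM in Vgll3 and 1.27 to 2.83 CPM in Ccne1. Its log2 fold change was 3.54 (11.6-fold, SE 0.26, edgeR adjusted p = 2.56e-05). The third member, Kcnab3, was 0.738 ± 0.345 CPM in Vgll3 and 0.665 ± 0.254 CPM in Ccne1 and was not called (edgeR adjusted p = 0.841). Kcnip1, the calcium-binding KChIP1 that joins Kv4 channels, rose to 17.3, 25.4 and 29.7 CPM in Vgll3, against 5.12 to 8.099 CPM in Ccne1 (3.54-fold, log2 fold change 1.82, SE 0.21, edgeR adjusted p = 0.000199).

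Small membrane subunits of the Kcne family were scarce. Kcne4, which inhibits several Kv channels, had 1.03, 1.44 and 0.636 CPM in Vgll3 and 0.182 to 0.558 CPM in Ccne1 (log2 fold change 1.45, edgeR adjusted p = 0.0313). Its call ended without Vgll3 replicate 1 or 2, and without Ccne1 replicate 1, 3 or 4, at edgeR adjusted p-values of 0.0596 to 0.135. Kcne3 was 0.193 ± 0.173 CPM in Vgll3 and 0.459 ± 0.160 CPM in Ccne1 and did not pass (edgeR adjusted p = 0.187), but passed without Vgll3 replicate 3, where the log2 fold change was −2.27 (edgeR adjusted p = 0.0432).

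**Figure D2:**
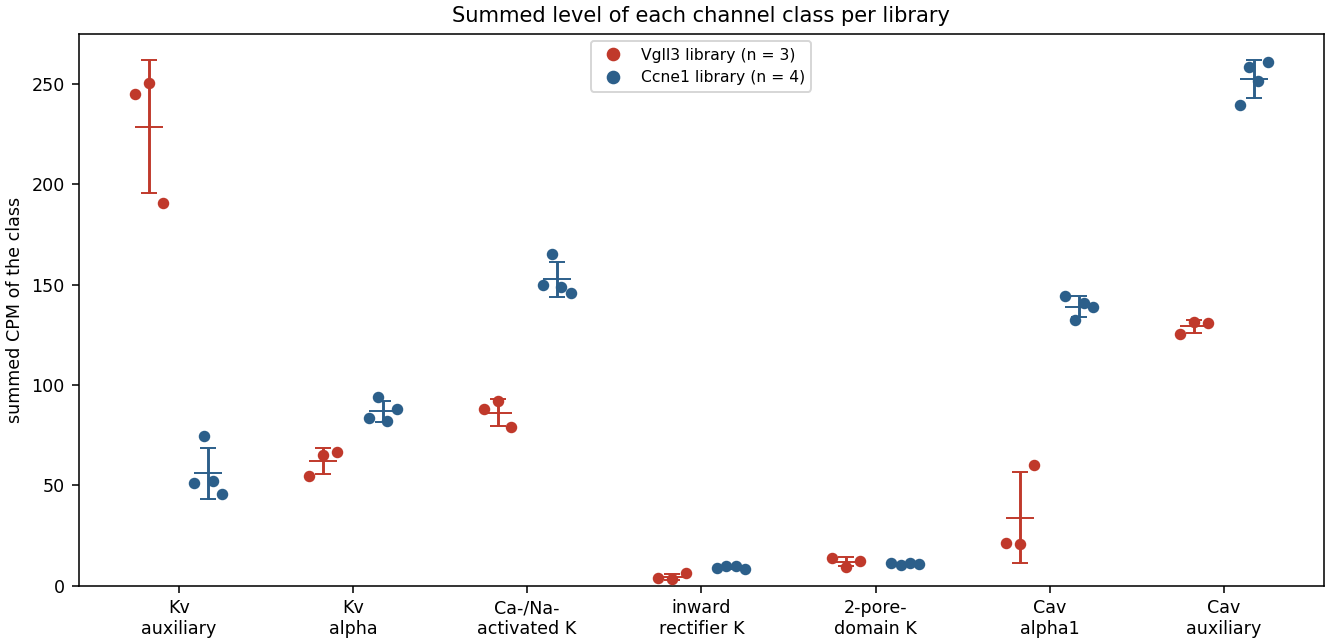
Summed CPM of all members of each potassium and calcium channel class in each library (points), with the group mean and SD as bars, Vgll3 in red and Ccne1 in blue. The Kv auxiliary genes summed to 190.8 to 251 CPM in Vgll3 and 45.9 to 74.6 CPM in Ccne1, and the Cav auxiliary genes to 125 to 131 CPM in Vgll3 and 239.5 to 261 CPM in Ccne1.

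Pores of the Kv1 family, which Kv-beta subunits bind, had lower levels per kilobase of exon: 0.286 CPM per kilobase for Kcna4 in Vgll3, where Kcnab2 had 31.8. Kcna4 (Kv1.4, a rapidly inactivating A-type pore) had 1.78, 1.74 and 0.636 CPM in Vgll3 and 0.182 to 0.341 CPM in Ccne1, 5.14-fold higher (SE of the log2 fold change 0.48, edgeR adjusted p = 0.00306). Kcna2 (Kv1.2) had 44 counts over the Vgll3 libraries, at 0.335 to 0.529 CPM, and 1 count over the Ccne1 libraries. The ratio of these counts was 57.1 with an exact 95% counting interval of 9.73 to 2307, so its size is poorly known (edgeR adjusted p = 0.00154). Kcnf1 (Kv5.1), which is silent by itself and modifies Kv2 channels, had 1.95, 2.53 and 0.904 CPM in Vgll3 and 0 to 0.155 CPM in Ccne1 (log2 fold change 4.19, SE 0.65, edgeR adjusted p = 0.000731). Kcnc2, the fast Kv3.2 pore, had 0.529 to 0.736 CPM in Vgll3 and 0 to 0.0962 CPM in Ccne1 (69 and 6 counts, edgeR adjusted p = 0.00263). No Ccne1 library of these 4 genes reached the level of the low-count filter, so they were tested only through their Vgll3 libraries. That the groups did not overlap in them follows from this and is no separate result. Kcna2 and Kcnc2 stayed under 1 CPM in both groups and are named because they passed.

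The other 5 tested Kv pores were lower in Vgll3 or did not pass. Kcnh2, the hERG channel that repolarises heart muscle (chromosome 5, 24319589 to 24351604), had 30.9, 39.3 and 34.9 CPM in Vgll3 and 57.8, 67.7, 53.9 and 57.7 CPM in Ccne1. It was the most abundant Kv alpha gene in both groups per kilobase of exon and was 1.69-fold lower in Vgll3 (log2 fold change −0.76, SE 0.11, edgeR adjusted p = 0.000434). Kcnq1, the Kv7.1 pore of heart and epithelia, had 0.236, 0.302 and 1.21 CPM in Vgll3 and 4.00 to 4.23 CPM in Ccne1 (log2 fold change −2.84, SE 0.53, edgeR adjusted p = 0.00207). As with Cacna1c, Vgll3 replicate 3 was the highest of its group and below every Ccne1 library; without it the log2 fold change was −3.93. Kcnq5, a pore of the M-current, was 10.5 ± 0.937 CPM in Vgll3 and 12.6 ± 1.37 CPM in Ccne1 (edgeR adjusted p = 0.0869). Kcnd1, a Kv4 pore of the kind KChIP1 binds, was 7.72 ± 2.10 CPM in Vgll3 and 8.61 ± 0.828 CPM in Ccne1 (edgeR adjusted p = 0.490). Kcnh3 was 0.723 ± 0.365 CPM in Vgll3 and 0.787 ± 0.152 CPM in Ccne1 (edgeR adjusted p = 0.810).

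**Figure D3:**
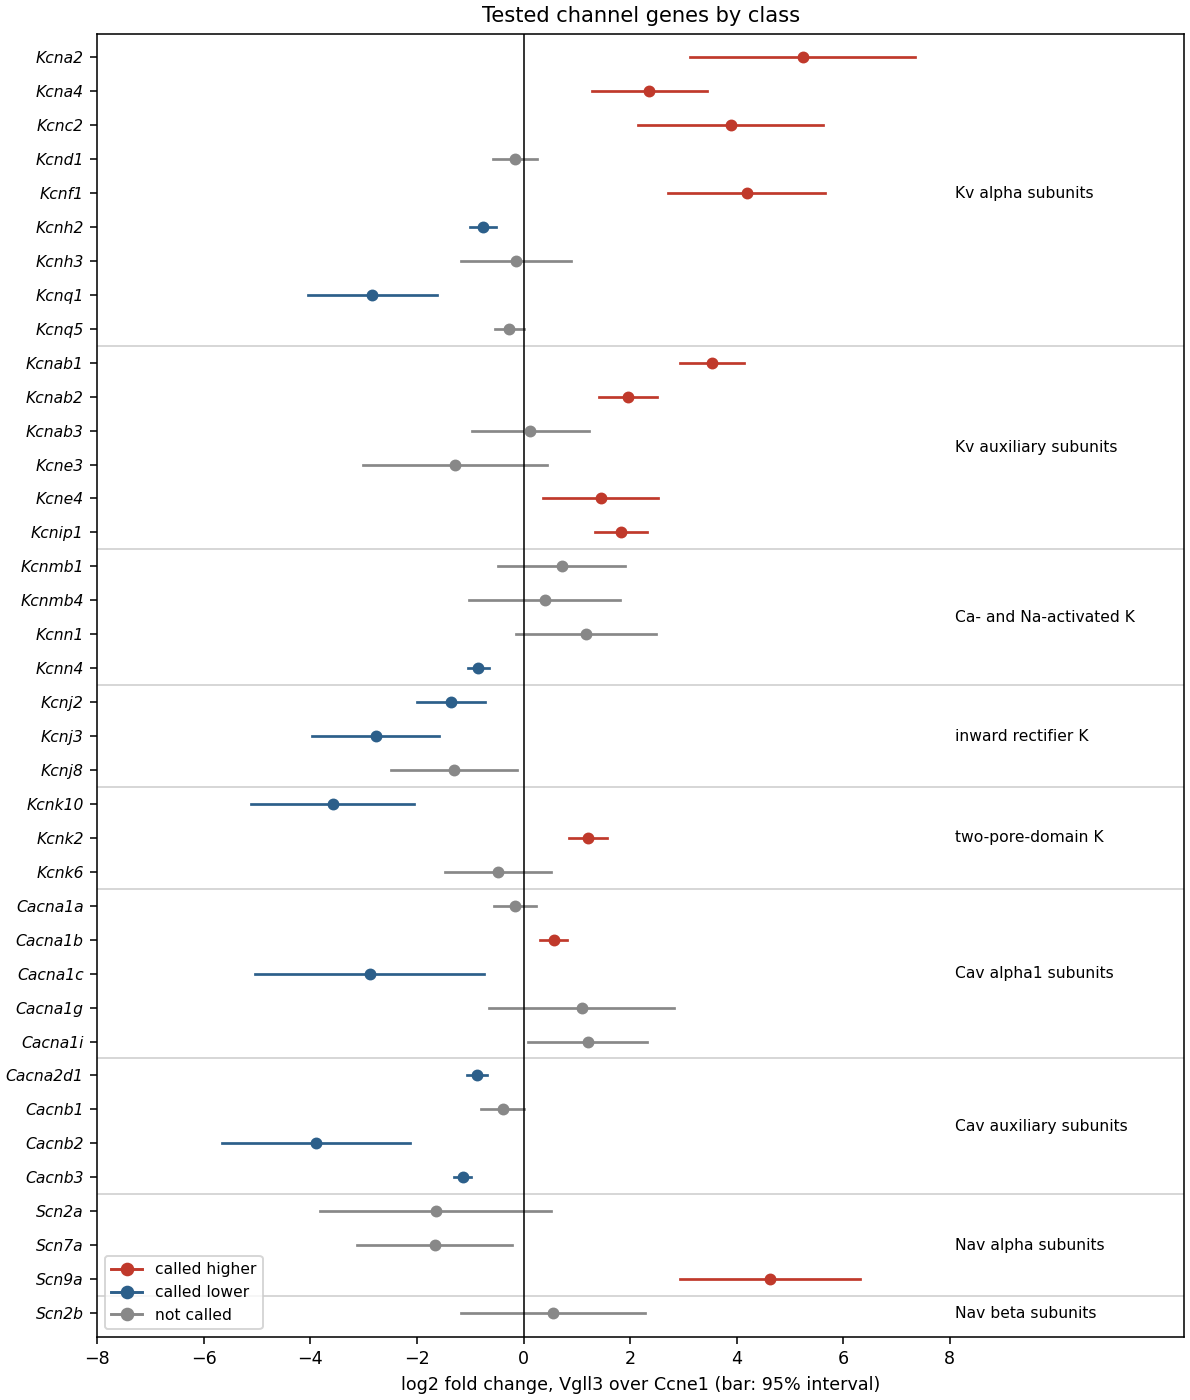
Log2 fold change, Vgll3 over Ccne1, of 38 of the 40 tested channel genes by class, with 95% intervals from the fit over all genes; red was called higher, blue lower, grey not called. The Kv auxiliary genes Kcnab1, Kcnab2, Kcnip1 and Kcne4 lie to the right of 0 and the calcium channel auxiliary genes Cacna2d1, Cacnb2 and Cacnb3 to the left.

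Of 4 tested genes of calcium- and sodium-activated potassium channels, 1 fell and 0 rose. That gene, Kcnn4, encodes KCa3.1, the intermediate-conductance channel opened by calcium through calmodulin, known from T cells, red cells and fibroblasts (chromosome 7, 24370263 to 24386690). It had 87.0, 89.9 and 74.5 CPM in Vgll3 and 148, 164, 148 and 144 CPM in Ccne1, and was 1.80-fold lower in Vgll3 (log2 fold change −0.85, SE 0.09, edgeR adjusted p = 7.34e-05). It was the most abundant tested channel gene per kilobase of exon in Ccne1 and the second in Vgll3, so the order of Kcnn4 and Kcnab2 differed between the models: per kilobase, Kcnab2 was 1.71 to 2.05 times Kcnn4 in Vgll3 and 0.225 to 0.363 times in Ccne1. Kcnn1, the small-conductance SK1 channel, and the BK beta subunits Kcnmb1 and Kcnmb4 were not called, with group means of 0.254 to 0.837 CPM (edgeR adjusted p 0.117 to 0.621).

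Both called inward rectifiers were lower. Kcnj2, the Kir2.1 channel that holds the resting potential of muscle and other cells, had 2.74, 1.29 and 2.78 CPM in Vgll3 and 4.83 to 6.72 CPM in Ccne1 (log2 fold change −1.36, SE 0.28, edgeR adjusted p = 0.00351). Kcnj3, the GIRK1 subunit opened by G proteins, had 0.129, 0.189 and 0.569 CPM in Vgll3 and 1.64 to 2.43 CPM in Ccne1 (log2 fold change −2.78, SE 0.53, edgeR adjusted p = 0.00213), and without Vgll3 replicate 3, the highest of its group, −3.67. A long non-coding RNA on the other strand covers 31.1% of the exon length of Kcnj3, and whether counting used strand is not given, so its reads cannot be told apart. Kcnj8, the Kir6.1 pore and also a pericyte marker, was 0.240 ± 0.0783 CPM in Vgll3 and 0.619 ± 0.272 CPM in Ccne1 (edgeR adjusted p = 0.0628).

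The TREK branch of the two-pore-domain family, background channels opened by membrane stretch and lipids, went both ways. Kcnk2 (TREK-1) had 11.3, 7.90 and 9.71 CPM in Vgll3 and 3.78 to 4.54 CPM in Ccne1, 2.32-fold higher (log2 fold change 1.22, SE 0.16, edgeR adjusted p = 0.000257). Kcnk10 (TREK-2) had 0.943, 0.113 and 0.134 CPM in Vgll3 and 4.16 to 6.07 CPM in Ccne1, 12.0-fold lower (log2 fold change −3.59, SE 0.66, edgeR adjusted p = 0.00257). Here Vgll3 replicate 1, not 3, was the high one, and without it the log2 fold change was −5.35. The groups did not overlap in either gene. An antisense RNA shares 12.2% of the exon length of Kcnk2, with the same limit as for Kcnj3. Kcnk6 (TWIK-2) was 0.907 ± 0.293 CPM in Vgll3 and 1.28 ± 0.567 CPM in Ccne1 (edgeR adjusted p = 0.382).

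Since Vgll3 acts through TEAD factors, the promoter windows of the tested members were searched for the TEAD core GGAATG on both strands. RefSeq windows (GRCm38.p6, 250 bases before to 50 after a start) were at hand for 31 of the 40, with 53 windows in all. The core was in 5 of the 53 (9.4%), against 14.7% of 32851 windows over all genes. It was in 1 of 23 windows of higher members and 2 of 14 windows of lower members; windows of 1 gene can overlap and are not separate members. The E-box CANNTG, which muscle and other bHLH factors bind, was in 75.5% of the members' windows and 72.3% of all windows. The 3 windows of called members that hold the TEAD core are shown, with the core in capitals (CATTCC where it lies on the other strand). They belong to 1 gene that rose and 2 that fell: Kcnk2, at chr1:189402224-189402523 on the minus strand, Kcnn4, at chr7:24370013-24370312 on the plus strand, and Kcnk10, at chr12:98578164-98578463 on the minus strand.
Kcnk2: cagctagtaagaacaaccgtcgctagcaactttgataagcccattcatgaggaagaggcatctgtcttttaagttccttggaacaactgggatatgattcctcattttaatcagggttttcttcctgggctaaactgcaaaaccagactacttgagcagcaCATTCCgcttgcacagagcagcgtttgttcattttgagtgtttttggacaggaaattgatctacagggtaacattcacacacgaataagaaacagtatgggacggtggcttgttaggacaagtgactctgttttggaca
Kcnn4: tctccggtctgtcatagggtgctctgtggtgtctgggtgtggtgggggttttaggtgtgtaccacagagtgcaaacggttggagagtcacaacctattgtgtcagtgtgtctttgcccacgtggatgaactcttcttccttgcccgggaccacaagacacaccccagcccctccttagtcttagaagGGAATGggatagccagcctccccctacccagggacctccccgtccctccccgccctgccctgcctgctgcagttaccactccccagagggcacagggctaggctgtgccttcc
Kcnk10: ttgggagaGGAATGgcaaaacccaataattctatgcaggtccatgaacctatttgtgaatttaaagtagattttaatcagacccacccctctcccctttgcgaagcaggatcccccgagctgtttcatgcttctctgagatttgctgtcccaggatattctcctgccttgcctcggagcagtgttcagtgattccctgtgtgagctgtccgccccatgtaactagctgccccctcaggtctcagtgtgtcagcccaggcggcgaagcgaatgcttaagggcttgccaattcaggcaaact
Kcnk2 and Kcnk10 have further RefSeq starts, whose windows hold no such core, and a match of 6 letters is a description, not a binding site.

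Of 4 tested sodium channel alpha genes, 1 rose and 0 fell. Scn9a (Nav1.7, the channel of pain-sensing neurons) rose to 0.943, 0.945 and 0.469 CPM in Vgll3, against 0 to 0.0577 CPM in Ccne1 (83 counts in Vgll3 and 4 in Ccne1, edgeR adjusted p = 0.000892). It stayed under 1 CPM and is named because it passed. No Ccne1 library of Scn9a reached the level of the low-count filter, so it was tested only through the Vgll3 libraries, where it was high. Scn7a, which encodes the sodium sensor Nax rather than a voltage-gated channel, had 0.335 to 0.605 CPM in Vgll3 and 2.32, 2.21, 1.36 and 0.291 CPM in Ccne1, where replicate 4 was the low one. It did not pass (log2 fold change −1.67, edgeR adjusted p = 0.0552), and without Ccne1 replicate 4 it did (log2 fold change −2.01, edgeR adjusted p = 0.00567), as it did by DESeq2 (adjusted p = 0.0278). Without any other 1 library its edgeR adjusted p was 0.0883 to 0.131, and by limma-voom the adjusted p was 0.163. Scn2a, the brain channel Nav1.2, had 0.0214, 0.0378 and 0.435 CPM in Vgll3 and 0.137 to 0.712 CPM in Ccne1. It was not called (edgeR adjusted p = 0.177), but without Vgll3 replicate 3, the high one, its log2 fold change was −4.01 (edgeR adjusted p = 0.00704).

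Scn2b, a beta subunit of sodium channels, was 0.703 ± 0.869 CPM in Vgll3 and 0.477 ± 0.137 CPM in Ccne1 (edgeR adjusted p = 0.565), and in Vgll3 only replicate 3, at 1.71 CPM, was above the Ccne1 libraries.

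Vgll3 replicate 3 was the highest of its group in 7 of the 11 lower members and the lowest in 7 of the 11 higher members. Over all genes it was highest in 39.5% of those called lower and lowest in 46.9% of those called higher. As a percentage of the Ccne1 mean, Cacna1c stood at 3.73, 3.88 and 33.3% in Vgll3 replicates 1 to 3, Kcnq1 at 5.75, 7.37 and 29.4%, and Kcnj3 at 6.43, 9.44 and 28.4%. Cacnb3, Cacna2d1 and Kcnn4 differed little between the 3 libraries, at 44.0 to 47.5%, 53.01 to 57.6% and 49.3 to 59.6%. Without replicate 3, 12 of 42 tested members were higher and 15 lower, while 7334 of 14035 genes were called (52.3%). All 22 calls made with replicate 3 were kept. The endothelial marker sum given above was also highest in that library, by Pecam1. Without Pecam1 it was highest in Ccne1 replicate 1. Within its group, Vgll3 replicate 3 also had the highest lymphocyte, skeletal muscle, macrophage, smooth muscle and pericyte, glial and epithelial sums. Its neuron and mesenchymal sums were not the highest. The part of other cell types in these values was not tested.

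**Figure D4:**
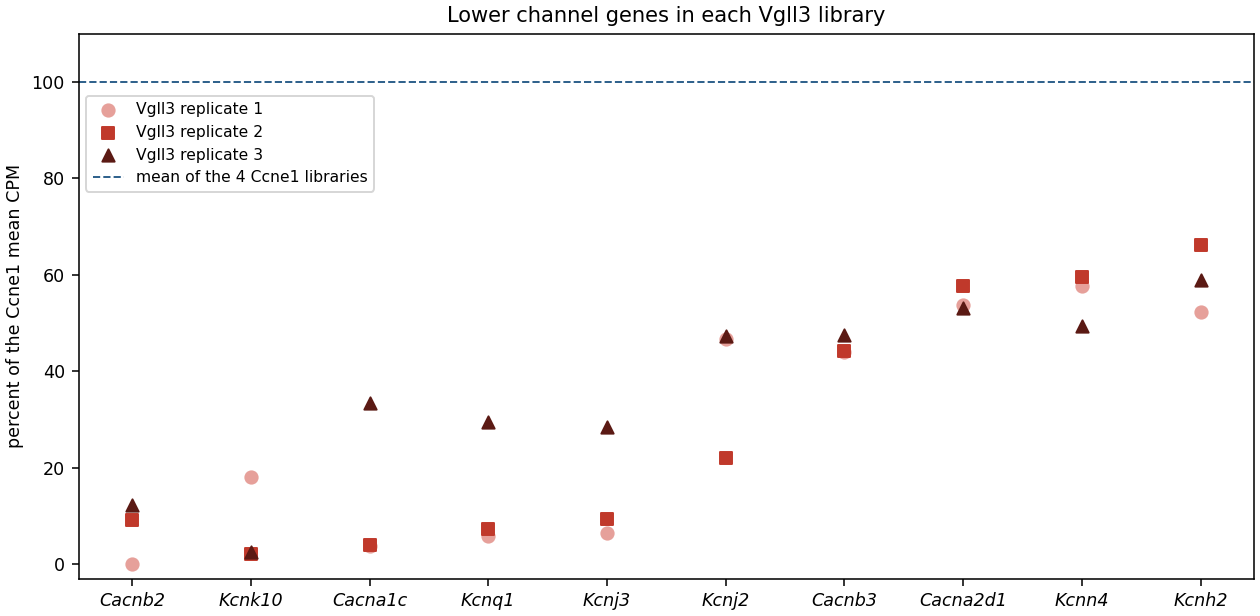
Level of 10 of the 11 lower channel genes in each Vgll3 library, as a percentage of the mean CPM of the 4 Ccne1 libraries (dashed line at 100). Replicate 3 lies well above the others in Cacna1c, Kcnq1 and Kcnj3, at 33.3%, 29.4% and 28.4%, and beside them in Cacnb3, Cacna2d1 and Kcnn4.

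Genes that work with these channels but fall outside the symbol rule changed in both directions. Of 23 tested channel partners, 8 rose and 10 fell (78.3% called, against 51.9% of all genes), and their median log2 fold change was −0.16. Ank2, the ankyrin that anchors channels and exchangers in the membrane, rose to 82.3, 70.3 and 58.6 CPM in Vgll3, against 5.50 to 9.41 CPM in Ccne1 (log2 fold change 3.30, edgeR adjusted p = 1.12e-05). Fgf14, an intracellular partner of sodium channels, had 1.36 to 1.87 CPM in Vgll3 and 0.0770 to 0.228 CPM in Ccne1 (log2 fold change 3.65, edgeR adjusted p = 0.000249). No Ccne1 library of Fgf14 reached the level of the low-count filter, so it was tested only through its Vgll3 libraries, which favours a large difference. Stac, an adaptor of L-type calcium channels, fell to 0.579, 1.21 and 2.44 CPM in Vgll3, against 17.1 to 21.2 CPM in Ccne1 (log2 fold change −3.85, edgeR adjusted p = 0.000302). Hcn2, a pacemaker channel, had 1.10 to 1.94 CPM in Vgll3 and 6.06 to 7.69 CPM in Ccne1 (log2 fold change −2.20, edgeR adjusted p = 9.07e-05).

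Of 21 tested genes of calcium stores, release and pumps, 8 rose and 8 fell (76.2% called, against 51.9% of all genes), with a median log2 fold change of 0.11. Itpr3, a calcium release channel of the endoplasmic reticulum, fell to 121, 105 and 127 CPM in Vgll3, against 399 to 464 CPM in Ccne1 (log2 fold change −1.83, edgeR adjusted p = 4.19e-06). Ryr2, the release channel of heart muscle, had 1.70 to 2.54 CPM in Vgll3 and 0.0910 to 0.250 CPM in Ccne1 (log2 fold change 3.49, edgeR adjusted p = 0.000223). Atp2a3, a calcium pump of the endoplasmic reticulum, had 0.567 to 1.48 CPM in Vgll3 and 0.0363 to 0.248 CPM in Ccne1 (edgeR adjusted p = 0.00446). Slc8a3, a sodium-calcium exchanger, had 0.0335 to 0.227 CPM in Vgll3 and 0.436 to 0.501 CPM in Ccne1 (edgeR adjusted p = 0.0199). No Ccne1 library of Ryr2 or Atp2a3, and no Vgll3 library of Slc8a3, reached the level of the low-count filter. These genes were thus tested only through the group where they were high, which favours a large difference.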

How the data were processed

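PolyA RNA-seq libraries of sorted sarcoma cells (3 Vgll3, 4 Ccne1) were read from 1 table of estimated counts per Ensembl gene that the authors deposited. Per the submitters' processing notes the counts were made with Salmon on mm10; how transcripts were annotated and summed, and whether strand was used, is not given in the sources used here. All values were whole, so 0 needed rounding. IDs were matched to GENCODE GRCm38 symbols and coordinates for 35493 of 35727 rows. The fit used edgeR 4.0.16 in R 4.3.3: filterByExpr, TMM scaling, the robust quasi-likelihood F test and Benjamini-Hochberg adjustment over 13740 genes, with a threshold of 0.05. Log2 fold changes are Vgll3 over Ccne1. CPM use TMM-scaled library sizes, and levels per kilobase divide them by merged exon length. That length covers all annotated exons and not the transcripts expressed, so ranks and ratios between genes are approximate. The floor of detection is 3 counts; exact intervals of count ratios and floors cover counting error only, since reads without molecular identifiers are not independent molecules. Promoter windows come from RefSeq (GRCm38.p6).

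The members, gene lists and tests were chosen with earlier results of these data known. Named genes are called members whose higher group averaged 1 CPM or more, the most abundant tested member of each class, the transduced genes, the 2 largest rises and falls of each pathway list and the most abundant marker of each list; other members are named to account for those tested, except 2 that are not reported here, though they stay in the fit and in the counts. The 13 alternatives included the edgeR fit with RLE scaling (the DESeq2 type of size factor), the DESeq2 1.42.0 Wald test and limma 3.58.1 voom. The others were library totals, no low-count filter, the replicate number as a block, and each library left out. Within groups, libraries differed by more than sampling noise (chi-square divided by its degrees of freedom was 11.7 to 88.9).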

Additional observations from a re-analysis of the deposited data

Results flagged for a closer look

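In 2 of the 40 tested members, 1 Ccne1 library lay far from the other 3 by Dixon's test, which chance alone meets in about 1 in 20 groups. Kcna2 was at 0.0455 CPM in Ccne1 replicate 1, which is 1 count, and at 0 in the other Ccne1 libraries. Scn2b was at 0.682 CPM in Ccne1 replicate 1, against 0.400 to 0.423 CPM in the others. The 3 Vgll3 libraries are too few for this test.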

How the results depend on the processing

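Of 517 values of members under 13 alternatives, 483 kept their direction and side of the threshold, 16 lost and 11 gained a call, and 7 changed sign, all of these in genes not called. The members called higher numbered 9 to 12 and those called lower 9 to 15 when 1 library was left out, 16 and 11 with no low-count filter, and 12 and 12 by DESeq2. Of all genes tested, 42.6 to 52.3% were called when 1 library was left out and 54.2% by DESeq2. Deviations from the group means correlated at −0.151, −0.167 and −0.103 for same-numbered libraries of the 2 groups, and at −0.0356 to 0.155 for differently numbered ones. Deviations within so small a group depend on each other, so these values cannot show whether the numbers pair the libraries. With the replicate block, 10 members were higher and 11 lower, 4841 genes were called against 7133, the block ended the calls of Cacna1c and Kcne4 (edgeR adjusted p 0.0776 and 0.127), and Scn7a passed (0.0183). With no low-count filter 6649 of 23095 genes were called (28.8%). Among genes not called, the log2 fold change with 1 library left out ran from −0.56 to 0.20 for Kcnh3, −0.31 to 0.33 for Kcnab3, −0.38 to 0.82 for Kcnmb4 and −1.19 to 1.00 for Scn2b, which was also −0.19 by limma-voom and −0.20 with the replicate block. The cause was not tested. Kcna2 fell below the filter when Vgll3 replicate 1 or Ccne1 replicate 2 or 3 was left out. Depth limits the members under 1 CPM, which rest on few counts.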
